A study of Mus musculus with 8 samples.

Results

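Rac GTPases and the phagocyte NADPH oxidase were followed across the cell types of the mouse liver through 7 genes, Rac1, Rac2, Cdc42, Cybb, Cyba, Ncf1 and Ncf4. They were taken by symbol from the 55450 genes of the deposited matrix, each with a single row. Single liver cells came from 8 C57BL/6 mice of wild-type genotype, all of them dissociated with collagenase, papain and DNase. The 2 control mice had normal diet and drinking water. The 3 HFD+F+CCl4 mice were fed a high-fat diet with fructose solution, which also held glucose, and the 3 WD+F+CCl4 mice a western diet with the same solution. Both NASH models also received weekly intraperitoneal CCl4, a hepatotoxin that leads to fibrosis, so that diet, fructose and CCl4 cannot be told apart in any comparison with control. Age and sex are not given in the labels.

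Rac1, Rac2 and Cdc42 encode small GTPases, which switch between a GDP-bound and a GTP-bound form and direct actin remodelling, migration and phagocytosis. The phagocyte NADPH oxidase moves electrons from NADPH to oxygen and so makes superoxide, used against microbes and known as a source of oxidative stress in the injured liver. Its membrane core is a heterodimer of the catalytic subunit gp91phox, also called NOX2 (Cybb), and p22phox (Cyba). The cytosolic subunits, among them the organizer p47phox (Ncf1) and the adaptor p40phox (Ncf4), join it when a cell is stimulated, together with GTP-bound Rac1 or Rac2. Cdc42 is not a subunit of the complex and was followed as a related GTPase.

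On GRCm38, Rac1 lies at chr5:143503634-143528036, Rac2 at chr15:78559167-78572783, Cdc42 at chr4:137319696-137357720, Cybb at chrX:9435252-9487771, Cyba at chr8:122424776-122432930 and Ncf1 at chr5:134220053-134229625, all on the minus strand, and Ncf4 at chr15:78244801-78262580 on the plus strand. Rac1, Cdc42, Cyba and Ncf1 overlap annotated genes of the opposite strand. RefSeq start sites with 250 bases of sequence before them were given for 4 of the 7 genes, on GRCm38.p6, and those of Rac1, Rac2 and Ncf4 were not analysed here. The sequences of Cdc42 and Cybb are shown because they held the most and the fewest CG dinucleotides of the 4. They are on the minus strand, with each CG in capitals, and cover chr4:137357760-137358009 for Cdc42 and chrX:9469325-9469574 for Cybb.
Cdc42: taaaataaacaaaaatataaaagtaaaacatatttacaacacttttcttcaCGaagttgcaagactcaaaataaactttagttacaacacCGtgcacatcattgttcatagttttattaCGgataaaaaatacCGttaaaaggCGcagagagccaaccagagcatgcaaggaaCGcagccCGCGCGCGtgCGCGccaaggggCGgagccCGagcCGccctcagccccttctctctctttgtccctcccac
Cybb: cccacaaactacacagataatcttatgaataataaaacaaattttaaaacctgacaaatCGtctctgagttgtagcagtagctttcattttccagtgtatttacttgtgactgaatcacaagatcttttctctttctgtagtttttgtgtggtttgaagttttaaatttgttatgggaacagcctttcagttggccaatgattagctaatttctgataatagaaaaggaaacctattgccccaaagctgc
The Cdc42 sequence held 15 CG dinucleotides, more than 72.69% of 32851 mouse promoters of the same length, whose median was 6. The Cybb sequence held 1 and the Ncf1 sequence 2, with 7.87% and 18.82% of promoters holding fewer, and the Cyba sequence held 6. Over 18 cell types, the highest mean level of Cdc42 was 2.80 times the lowest, and the same ratio was 5.68 for Cyba, 17.3 for Cybb and 19.8 for Ncf1. The Cybb start site used here lies within the gene span given above, so another start may also be in use. These counts are descriptions of letters in 4 windows.

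The levels below are unique molecular identifiers (UMIs, 1 per captured mRNA molecule), summed over the cells of 1 type in 1 mouse and scaled to the same total for every type and mouse (CPM). They rest on 3' counts, so each gene was compared across types and mice and not with the other genes. Of 88581 barcodes, 80474 had more than 500 genes and under 25% mitochondrial UMIs, between 4168 and 11999 per mouse. The library of control replicate 2 held 6135827 UMIs, that of control replicate 1 held 36699315 and those of the NASH mice between 46275590 and 64855024. Cells were clustered without the 7 genes and the genes of their pathway lists, and 18 types were named "-like" from marker genes. A total of 1467 kept cells, 1.82%, had a barcode that also occurred in another library. Each cell class that the labels list for the liver had clusters with its markers. The 65 and 34 monocyte-derived macrophage-like cells (macrophage-like below) of the control mice had 1463 and 512 CPM over 8 macrophage markers, against 8907 to 13572 CPM in the NASH mice, so that few control cells stand for this type. A further 855 cells, 844 of them from control mice, had monocyte markers together with RNA of secreted hepatocyte proteins and were left unnamed. Clusters of 1539 and 2047 cells, led by RNA of secreted hepatocyte proteins and also unnamed, came from the control mice alone. The second held 2026 of the 4168 kept cells of control replicate 2, so that the shares of cells and UMIs given for the control mice depend on these cells. A value is given only for a type with at least 20 cells in a mouse, and ± is the SD over mice.

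Cybb, the catalytic subunit, was highest in patrolling monocyte-like cells, with 2825 ± 382 CPM (n = 7 mice). Its level was 2457 CPM in control replicate 1, 2253, 2730 and 2870 CPM in the HFD+F+CCl4 mice and 3364, 2980 and 3123 CPM in the WD+F+CCl4 mice. Classical monocyte-like cells came next with 2077 ± 143 CPM (n = 8), below patrolling monocyte-like cells in 7 of 7 mice. Macrophage-like cells were lower than classical monocyte-like cells in 8 of 8 mice, at 1304 ± 286 CPM. Kupffer cell-like cells, the resident macrophages of the liver, had 1272 ± 92.3 CPM (n = 5) and plasmacytoid DC-like cells 1244 ± 263 CPM. The order among these last 3 did not hold beyond the spread, since the macrophage-like cells were above the Kupffer cell-like cells in 1 of 5 mice. The control mice had 6 and 0 Kupffer cell-like cells, so all values of this type, here and below, came from NASH mice only. Neutrophil-like cells had 949 ± 348 CPM (n = 7), below plasmacytoid DC-like and above B cell-like cells (529 ± 194 CPM) in 7 of 7 mice. Conventional DC-like cells had 465 ± 172 CPM, and the lowest leukocytes were T cell-, NK cell- and cycling T cell-like cells with 295 ± 171, 276 ± 189 and 163 ± 123 CPM, besides plasma cell-like cells with 193 ± 134 CPM (n = 4).

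**Figure D1:**
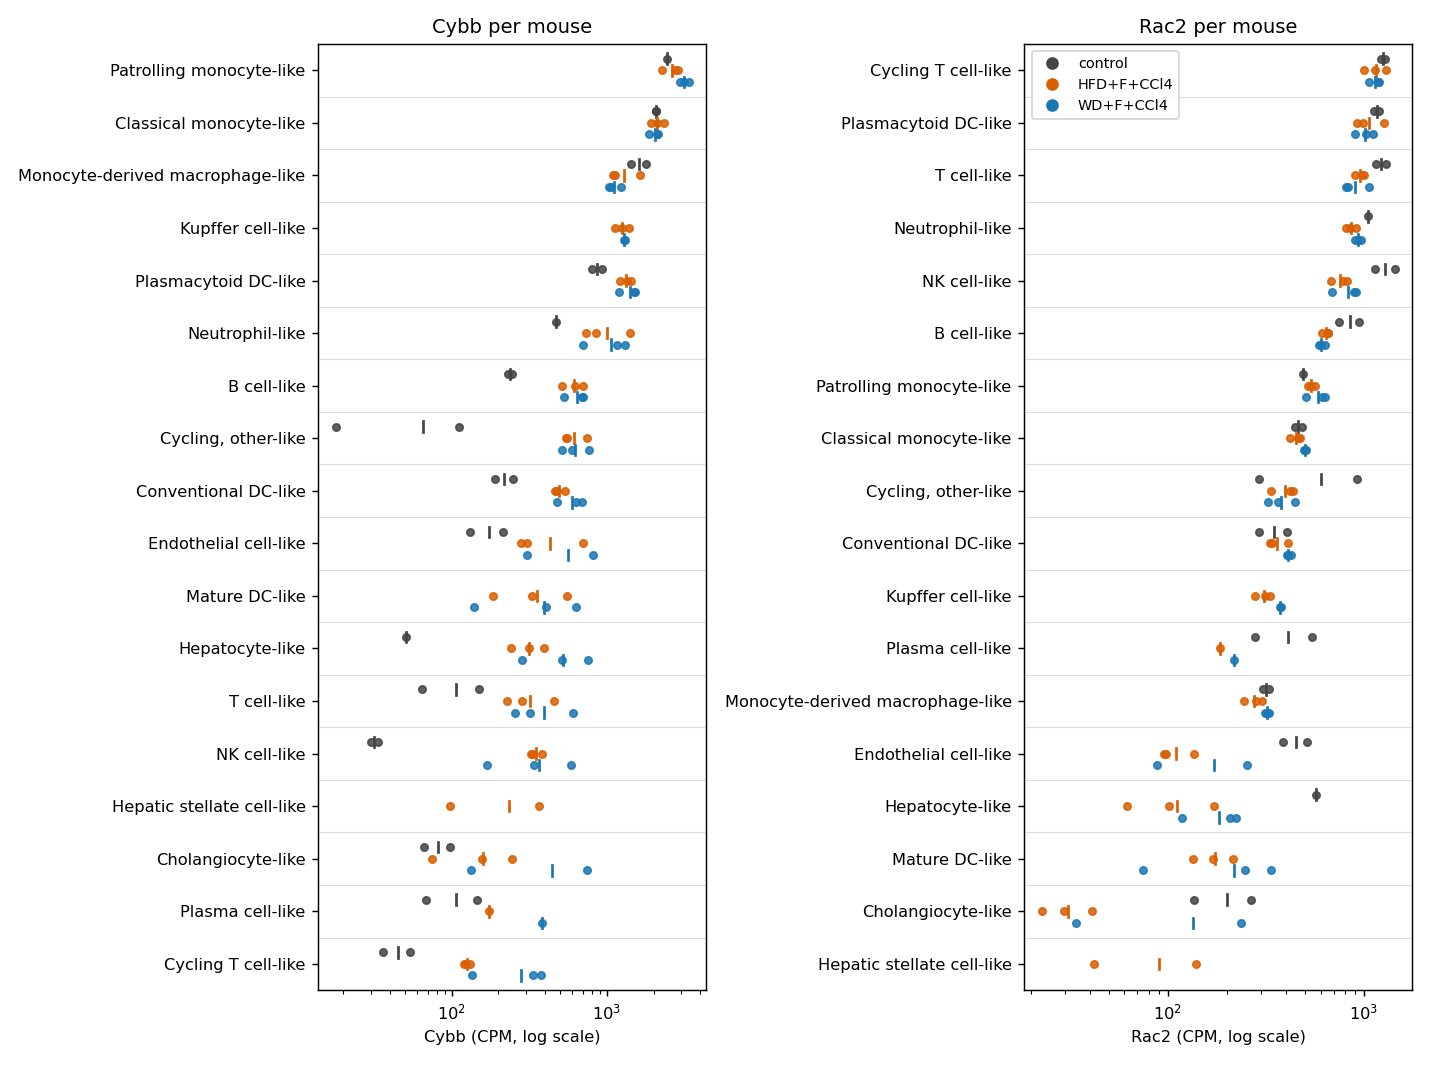
Levels of Cybb and Rac2 per mouse in the 18 cell types, in CPM on a log scale, with types ordered by their mean. Points are mice, coloured by group, and short lines are group means. Cybb runs from 2825 CPM in patrolling monocyte-like to 163 CPM in cycling T cell-like cells, and Rac2 from 1172 CPM in cycling T cell-like to 90.2 CPM in hepatic stellate cell-like cells.

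Cyba, the partner that stabilizes gp91phox, was spread over more types. It was highest in mature DC-like cells (1677 ± 178 CPM, n = 6), classical monocyte-like cells (1607 ± 328 CPM) and patrolling monocyte-like cells (1596 ± 215 CPM). These neighbours did not differ beyond their spread, as mature DC-like cells were above classical monocyte-like cells in 2 of 6 mice. The mature DC-like values came from NASH mice only, and over the NASH mice alone classical monocyte-like cells had the highest mean. Mature DC-like cells combined this with a low Cybb level, 374 ± 196 CPM. Neutrophil-like cells had 1379 ± 232 CPM of Cyba and conventional DC-like cells 1055 ± 237 CPM, with the former higher in 7 of 7 mice. T cell- and B cell-like cells had 738 ± 138 and 745 ± 158 CPM, and hepatic stellate cell-like cells were lowest with 295 ± 78.5 CPM (n = 2).

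The cytosolic subunits peaked in neutrophil-like cells. Ncf1 was at 436 CPM there in control replicate 1, at 704, 704 and 732 CPM in the HFD+F+CCl4 mice and at 587, 619 and 715 CPM in the WD+F+CCl4 mice. The mean was 642 ± 106 CPM (n = 7), and it lay above classical monocyte-like cells (313 ± 48.7 CPM) in 7 of 7 mice. Plasmacytoid DC-like cells had 303 ± 69.8 CPM and were above classical monocyte-like cells in 5 of 8 mice. Macrophage- and B cell-like cells were close to each other, at 207 ± 48.8 and 206 ± 42.6 CPM. Cycling cells other than T cells had 182 ± 20.5 CPM, and the next type, NK cell-like cells, was lower in 8 of 8 mice with 85.3 ± 35.8 CPM. Ncf4 was at 329 ± 76.2 CPM in neutrophil-, 279 ± 73.7 CPM in patrolling monocyte- and 255 ± 82.1 CPM in classical monocyte-like cells, each of them above every other type in the mean. Patrolling were above classical monocyte-like cells in 4 of 7 mice. B cell-like cells came next with 148 ± 35.6 CPM, below classical monocyte-like cells in 8 of 8 mice and above macrophage-like cells (143 ± 29.7 CPM) in 6 of 8.

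Rac2, the haematopoietic Rac, was highest in lymphoid and plasmacytoid cells. Cycling T cell-like cells had 1172 ± 102 CPM, above plasmacytoid DC-like cells (1067 ± 129 CPM) in 8 of 8 mice. T cell-like cells had 1002 ± 165 CPM, neutrophil-like cells 916 ± 78.9 CPM and NK cell-like cells 916 ± 256 CPM, and these neighbours overlapped. Macrophage-like cells had 303 ± 28 CPM, below the 550 ± 54.4 CPM of patrolling monocyte-like and the 472 ± 29.8 CPM of classical monocyte-like cells. Rac1, the widely expressed Rac, had another order. Classical monocyte-like cells led with 511 ± 52.3 CPM, above endothelial cell-like cells (470 ± 46.6 CPM) in 5 of 7 mice, and patrolling monocyte-, Kupffer cell-, macrophage- and neutrophil-like cells followed between 453 and 411 CPM without an order beyond their spread. Plasmacytoid DC-like cells, near the top for Rac2, had 219 ± 41.1 CPM of Rac1, the second lowest mean, with plasma cell-like cells at 148 ± 36.0 CPM (n = 4). Cdc42 was the most even of the 7 genes. It was at 1099 ± 55.0 CPM in patrolling monocyte-like cells, above classical monocyte-like cells (962 ± 84.4 CPM) in 7 of 7 mice and was lowest in plasma cell-like cells.

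The genes whose mean levels over the 18 types were most like those of a member are given with Pearson's r among 8000 genes, as a description without a test, since the types share libraries. Rac1 was closest to Bnip2 (0.92), Akt1 (0.91) and Rab5c (0.89), and Rac2 to Sash3 (0.94), Ikzf1 (0.93) and AI467606 (0.92). Cdc42 was closest to Arpc2 (0.95) and Arpc1b (0.95), subunits of the Arp2/3 complex that branches actin filaments, and to Myo1f (0.94). Cybb was closest to the kinase gene Lyn (0.94), Tlr7 (0.94) and Aldh3b1 (0.94), and Cyba to Ucp2 (0.96), Arpc5 (0.92) and Nckap1l (0.91). Ncf1 was closest to Pirb (0.92), the phosphatase gene Ptpn6 (0.91) and Themis2 (0.91), and Ncf4 to Il17ra (0.93), Gmip (0.92) and Rgs19 (0.92). Within the 7 genes, Rac1 and Rac2 had the lowest correlation over types (0.03) and Cdc42 and Cyba the highest (0.88).

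Because the makeup of the liver cells differed between the groups, the share of each gene's UMIs by type was computed per mouse. Unnamed cells, among them the control cells with monocyte markers and hepatocyte RNA, count in the total of a mouse and in no type. Their part of the UMIs of the control mice is not given here. Monocyte-, macrophage-, Kupffer cell- and DC-like cells, here called mononuclear phagocytes, held 85.3% of all Cybb UMIs in the NASH mice (range 79.5% to 87.8%) and 30% and 34.7% in the control mice. For Rac2 the share was 61.2% (54.3% to 70.9%) against 8.77% and 14.2%, and for Rac1 71.4% (65.7% to 76.8%) against 12.9% and 17.8%. T cell-like cells held a mean of 39.3% of Rac2 UMIs in the control mice and 12.8% in the NASH mice. In the control mice B cell-like cells held 21.3% of Ncf1 and 21.2% of Ncf4 UMIs, and plasmacytoid DC-like cells held 19.8% of Cybb UMIs. In the NASH mice neutrophil-like cells held 15.3% of Ncf1 and 11.02% of Ncf4 UMIs. Mononuclear phagocytes were 6.93% and 14.1% of the kept cells of the control mice and between 54.2% and 70.7% of those of the NASH mice, so these shares move with cell numbers. In such dissociated samples, fewer cells of a type and a lower yield of that type cannot be told apart.

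**Figure D2:**
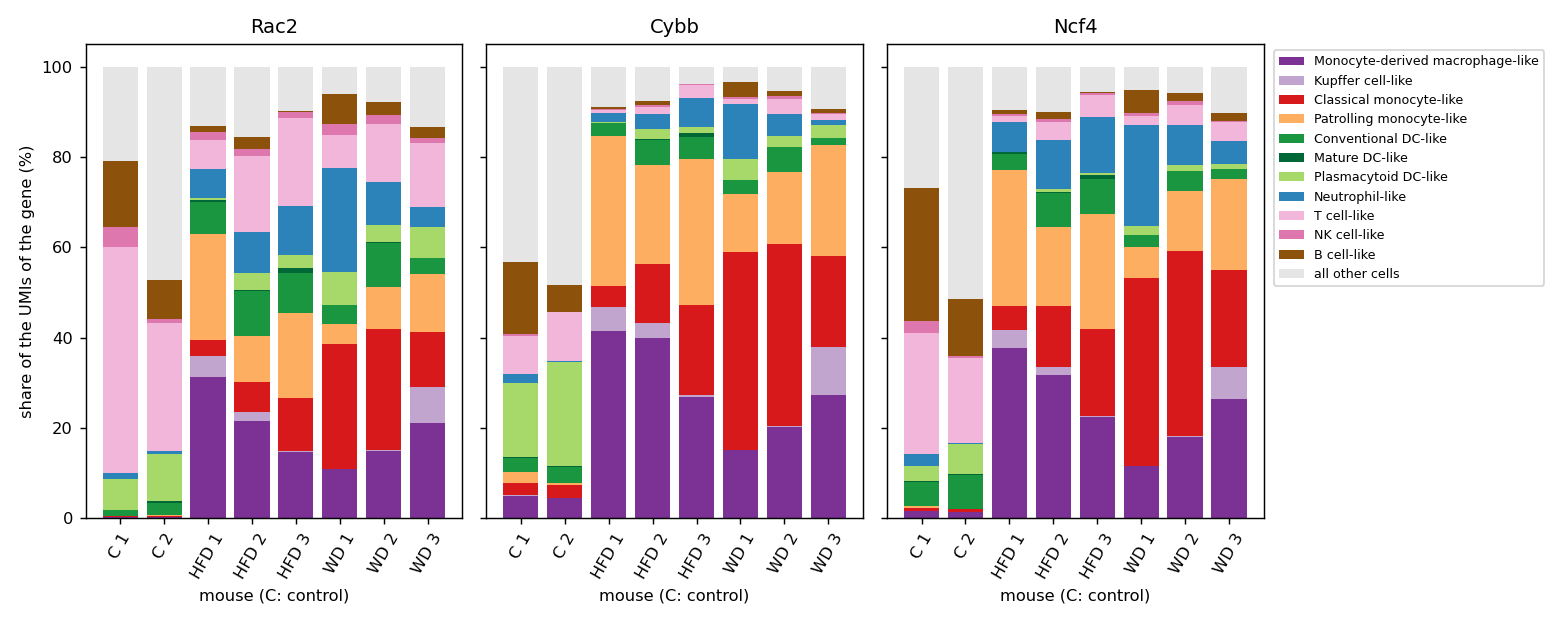
Share of all UMIs of Rac2, Cybb and Ncf4 that lay in each cell type, in percent, as 1 stacked bar per mouse (C, control). Grey stands for all other cells, among them those without a name. In the control mice (first 2 bars) T cell- and B cell-like cells hold large shares, while in the 6 NASH mice mononuclear phagocytes hold 61.2% of Rac2 and 85.3% of Cybb on average.

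The design sets each NASH model against control, and this was first done in the pooled mononuclear phagocytes. Of the membrane subunits, Cybb was at 743 and 682 CPM in the control mice, at 1328, 1297 and 1802 CPM in the HFD+F+CCl4 mice and at 1617, 1644 and 1520 CPM in the WD+F+CCl4 mice. Every NASH mouse lay above both controls. Its log2 fold change was 1.26 ± 0.24 (SE) in HFD+F+CCl4 against control (adjusted p = 0.00694, edgeR quasi-likelihood test) and 1.40 ± 0.24 in WD+F+CCl4 against control (adjusted p = 0.003728, edgeR). Cyba was at 964 and 654 CPM in the control mice and between 1284 and 1894 CPM in the NASH mice, again without overlap. It changed by 1.09 ± 0.30 (adjusted p = 0.03178, edgeR) and 1.10 ± 0.30 (adjusted p = 0.02682, edgeR).

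Ncf4 was at 73.5 and 87.0 CPM in the control mice, at 178, 142 and 245 CPM in the HFD+F+CCl4 mice and at 205, 188 and 177 CPM in the WD+F+CCl4 mice. It had the largest log2 fold changes of the 7 genes, 1.46 ± 0.26 (adjusted p = 0.005341, edgeR) and 1.5 ± 0.26 (adjusted p = 0.00389, edgeR). Ncf1 was at 220 and 191 CPM in the control mice and between 222 and 274 CPM in the NASH mice. It passed the test in the WD+F+CCl4 mice only (0.54 ± 0.17, adjusted p = 0.0479, edgeR, against 0.38 ± 0.17, adjusted p = 0.1498), which does not show that the models differ. This call was lost under 10 of 13 other settings, for example with no scaling beyond library size (0.29, adjusted p = 0.1621, edgeR), and DESeq2's own test kept it (adjusted p = 0.02326).

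Among the GTPases, Rac1 was at 251 and 309 CPM in the control mice, at 460, 403 and 419 CPM in the HFD+F+CCl4 mice and at 425, 461 and 417 CPM in the WD+F+CCl4 mice. It rose by 0.82 ± 0.15 (adjusted p = 0.006005, edgeR) and 0.89 ± 0.15 (adjusted p = 0.003623, edgeR) on the log2 scale. Rac2 went the other way, from 733 and 807 CPM in the control mice to 362, 330 and 406 CPM in the HFD+F+CCl4 and 476, 447 and 434 CPM in the WD+F+CCl4 mice. Its log2 fold change was -0.86 ± 0.17 (adjusted p = 0.00762, edgeR) in HFD+F+CCl4, and -0.52 ± 0.17 (adjusted p = 0.05052, edgeR) in WD+F+CCl4, just outside the threshold of 0.05. Cdc42 was at 773 and 710 CPM in the control mice and between 847 and 928 CPM in the NASH mice, with adjusted p = 0.08538 and 0.05793 (edgeR). In all, 4 of the 7 genes rose and 1 fell in HFD+F+CCl4, where 21.3% of 17127 genes were called (11.9% higher, 9.34% lower), and 5 rose in WD+F+CCl4, where 26.2% were called (14.3% higher, 11.9% lower). Without scaling beyond library size 5 members were past the threshold in each model as well, while the split over all genes moved from 2042 higher and 1600 lower to 1363 and 2150 in HFD+F+CCl4, and from 2451 and 2037 to 1506 and 2742 in WD+F+CCl4. The median log2 fold change over all genes was then -0.11 and -0.17, against 0.08 and 0.07. With the cycling cells led by Mpo and Top2a added to the pool, 5 members were past the threshold in each model, where 20.3% and 25.3% of genes were called. Without control replicate 1 the members past it were 1 and 3, and without control replicate 2 they were 3 and 3.

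The pools differed in makeup. DC-like cells were 81.7% and 87.7% of the mononuclear phagocytes of the control mice and between 7.80% and 19.8% of those of the NASH mice. This pool leaves out the unnamed cells with monocyte markers and hepatocyte RNA, 707 and 137 of them in the control mice. Counted as monocytes, they would lower these control shares. The DC-like cells of the control mice were 401 and 276 plasmacytoid and 191 and 221 conventional ones, besides a few mature ones, and only 137 and 72 control cells of the pool were not DC-like. Plasmacytoid DC-like cells had the second highest mean level of Rac2 and the second lowest of Rac1 among the 18 types. Without DC-like clusters, 0 of 7 genes were called in either model (edgeR), where 1.09% and 1.4% of 15825 genes were called. Rac1 was then at 421 and 441 CPM in the control mice and between 428 and 486 CPM in the NASH mice, and its log2 fold changes were 0.15 and 0.22. Cybb was at 1962 and 1489 CPM in the control mice and between 1424 and 2181 CPM in the NASH mice (0.06 and 0.12), and Rac2 at 389 and 441 CPM and between 312 and 445 CPM (-0.09 and 0.20). In each of these 3 genes the groups now overlapped. Ncf4 kept the largest values, 0.77 ± 0.34 (adjusted p = 0.3251, edgeR) and 0.81 ± 0.34 (adjusted p = 0.2698, edgeR), with 138 and 110 CPM in the control mice and between 159 and 284 CPM in the NASH mice.

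Equal weight to the 4 phagocyte types present in every mouse, classical monocyte-, macrophage-, conventional DC- and plasmacytoid DC-like, gave a further view, chosen after seeing the data. On the log2(CPM + 10) scale, the difference between the 6 NASH and the 2 control mice was 0.61 in the pool and 0.08 with equal weight for Rac1 (p = 0.4643, exact permutation test over 28 splits of the mice). For Rac2 it was -0.91 in the pool and -0.02 with equal weight (p = 0.7857, exact permutation test). Cybb was at 1.09 and 0.38, Ncf1 at 0.23 and 0.36 and Cdc42 at 0.26 and -0.14, each with p = 0.0357 for the equal weight in the exact permutation test, the smallest p that 28 splits give. Cyba was at 0.41 (p = 0.1786) and Ncf4 at 0.37 (p = 0.0714, exact permutation tests). The test takes the absolute difference, and by doubling of a one-sided p the smallest value would be 0.0714. These CPM carry no further scaling, and how many of all genes reach p = 0.0357 in this permutation test was not counted. Without scaling in edgeR, the median log2 fold change over all genes was 0.24 in each model in classical monocyte-like cells. It was 0.19 and 0.20 in macrophage-like, 0.03 and -0.01 in conventional DC-like and 0.01 and -0.097 in plasmacytoid DC-like cells.

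**Figure D3:**
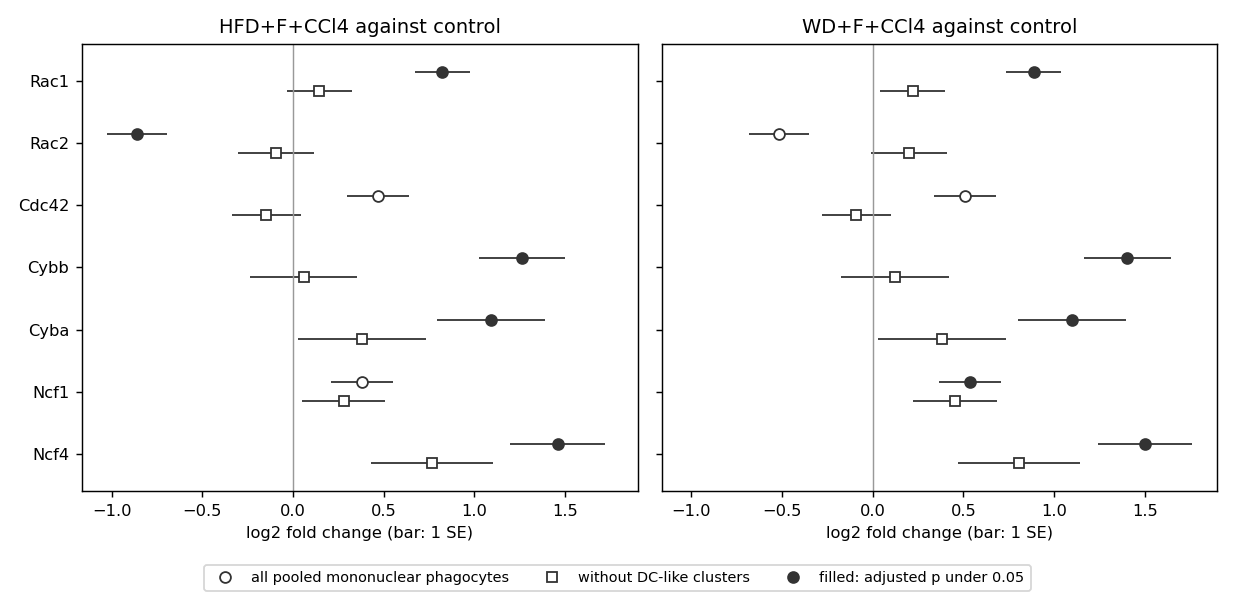
Log2 fold changes of the 7 genes in mononuclear phagocytes, HFD+F+CCl4 (left) and WD+F+CCl4 (right) against control, with 1 SE from edgeR. Circles are all pooled cells and squares the pool without DC-like clusters, and filled symbols passed an adjusted p of 0.05. Of the circles 5 are filled on each side, and of the squares none (0 of 7 genes).

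Each type was then compared with itself. In all, 11 types had enough cells for the test, or 77 tests of the 7 genes in each comparison. In HFD+F+CCl4, 6 rose and 1 fell, against 2.91% of 117844 tests over all genes, and 10 rose in WD+F+CCl4, against 5.12%. Cybb made up 5 and 7 of these calls. Without control replicate 1, 2 and 3 calls were left, those of Cybb in B cell-like and conventional DC-like cells in both models and that of Cyba in B cell-like cells in WD+F+CCl4. Rac1 and Cdc42 were called in none of the 11 types, by edgeR or by DESeq2. An unadjusted p under 0.05 against control was seen for Rac1 only, in classical monocyte-like cells of HFD+F+CCl4, 0.48 ± 0.20, and in T cell-like cells of WD+F+CCl4, 0.43 ± 0.16 (edgeR). Over all genes, 1298 of 11688 and 3592 of 12789 were under 0.05 there, in that order. The median log2 fold changes over all genes were 0.36 and 0.004.

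In antigen-presenting cells, Cybb rose in conventional DC-like cells, from 247 and 190 CPM in the control mice to 462, 478 and 540 CPM in the HFD+F+CCl4 and 687, 636 and 479 CPM in the WD+F+CCl4 mice. The log2 fold changes were 1.15 ± 0.23 (adjusted p = 0.01916, edgeR) and 1.46 ± 0.23 (adjusted p = 0.003588, edgeR), where 4.4% and 9.75% of genes were called, and without control replicate 2 the first was lost (0.95, adjusted p = 0.1364, edgeR). In plasmacytoid DC-like cells Cybb was at 802 and 930 CPM in the control mice and between 1202 and 1523 CPM in the NASH mice, without overlap. It passed the test in WD+F+CCl4 (0.75 ± 0.18, adjusted p = 0.01695, edgeR) and not in HFD+F+CCl4 (0.58 ± 0.18, adjusted p = 0.1095, edgeR), with 8.12% and 3.7% of genes called, and the call was lost without either control mouse (0.71, adjusted p = 0.1388, and 0.89, adjusted p = 0.05309, edgeR). B cell-like cells had 246 and 232 CPM of Cybb in the control mice, 622, 516 and 704 CPM in the HFD+F+CCl4 mice and 690, 697 and 528 CPM in the WD+F+CCl4 mice. They changed by 1.36 ± 0.23 (adjusted p = 0.001606, edgeR) and 1.57 ± 0.22 (adjusted p = 0.0002221, edgeR), where 6.4% and 12.6% of genes were called. Cyba rose in the same cells in WD+F+CCl4 (0.82 ± 0.22, adjusted p = 0.02008, edgeR), from 595 and 468 CPM to 963, 760 and 839 CPM. This call was lost without control replicate 2 (0.61, adjusted p = 0.1754) or WD+F+CCl4 replicate 1 (0.74, adjusted p = 0.08741, edgeR).

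In lymphoid cells the levels of Cybb were lower and its fold changes larger. NK cell-like cells had 30.2 and 33.4 CPM in the control mice, 325, 336 and 380 CPM in the HFD+F+CCl4 mice and 341, 590 and 169 CPM in the WD+F+CCl4 mice. The log2 fold changes were 3.54 ± 0.50 (adjusted p = 0.0003388, edgeR) and 3.72 ± 0.50 (adjusted p = 0.0001974, edgeR), where 5.43% and 6.66% of genes were called, and without control replicate 1 neither was called (3.91, adjusted p = 0.3353, and 4.10, adjusted p = 0.218, edgeR). T cell-like cells had 64.5 and 149 CPM in the control mice and between 227 and 609 CPM in the NASH mice. They passed the test in WD+F+CCl4 (2.12 ± 0.48, adjusted p = 0.02586, edgeR, 10.6% of genes called) and not in HFD+F+CCl4 (1.70 ± 0.47, adjusted p = 0.06413, edgeR, 6.26% called). The call was lost without control replicate 1 (1.68, adjusted p = 0.158) or WD+F+CCl4 replicate 2 (1.66, adjusted p = 0.06746, edgeR). Cycling T cell-like cells had 36.1 and 54.2 CPM in the control mice, 124, 131 and 119 CPM in the HFD+F+CCl4 and 333, 374 and 135 CPM in the WD+F+CCl4 mice, with changes of 1.58 ± 0.40 (adjusted p = 0.04539, edgeR) and 2.72 ± 0.40 (adjusted p = 0.00149, edgeR), where 2.27% and 2.34% of genes were called. Neither of these was called without control replicate 1 (1.24 and 2.36, adjusted p = 0.5931 and 0.2546, edgeR), and that of HFD+F+CCl4 was also lost without control replicate 2, HFD+F+CCl4 replicate 2 or 3 or WD+F+CCl4 replicate 2. Cycling cells other than T cells, led by the granule genes Prtn3 and Mpo, were not named as lymphoid. They had 17.9 and 112 CPM in 33 and 28 control cells and between 511 and 771 CPM in the NASH mice. Their changes were 4.23 ± 0.52 (adjusted p = 0.014, edgeR) and 4.30 ± 0.52 (adjusted p = 0.01208, edgeR), where 0.431% and 1.4% of genes were called. Without control replicate 1 they were 2.96 and 3.03 and not called (adjusted p = 0.3848 and 0.2639, edgeR), and without control replicate 2 they were 4.99 and 5.07.

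RNA of macrophage markers was also higher in the NASH mice than in the control mice in these types. Among the NASH mice, the order of the marker sums was not always that of Cybb. The summed level of 8 macrophage markers in NK cell-like cells was 19.1 and 33.4 CPM in the control mice, where 3 of the 8 were at 0, and between 489 and 2331 CPM in the NASH mice. In T cell-like cells it was 46.5 and 43.8 CPM against 836 to 2200 CPM. In cycling T cell-like cells it was 13.6 and 21.7 CPM against 231 to 1439 CPM. There the highest sum (HFD+F+CCl4 replicate 1) went with 124 CPM of Cybb and the lowest of the NASH mice (WD+F+CCl4 replicate 2) with 374 CPM. In the other cycling cells the sum was 50.2 and 56.0 CPM in the control mice, where 5 of the 8 were at 0. It was 1909 to 10806 CPM in the NASH mice. Whether this name covers the same kind of cell in both conditions was not tested. In B cell-like cells the sum was 29.8 and 20.05 CPM against 310 to 3456 CPM, in conventional DC-like cells 75.8 and 43.7 CPM against 437 to 871 CPM and in plasmacytoid DC-like cells 16.9 and 23.4 CPM against 424 to 1144 CPM. The part of this RNA in the changes of Cybb was not tested. To put both on 1 scale, the CPM of Cybb per CPM of the 8 markers was divided by the same ratio in the pooled phagocytes of the same mouse, so that 1 means the proportion of the pool. In the NASH mice the median of this quotient was 1.002 in NK cell-like (range 0.74 to 1.518) and 0.988 in T cell-like cells (0.868 to 1.255). In cycling T cell-like cells it was 1.104 (0.616 to 3.718), and 3 of 6 mice were above 1 in each of these types. It was 0.576 in the other cycling cells, below 1 in 6 of 6 mice. It was 1.627 in B cell-like cells (1.287 to 4.435), 3.685 in conventional DC-like and 6.301 in plasmacytoid DC-like cells, above 1 in 6 of 6 mice for each, and the DC-like cells are themselves part of the pool. Patrolling monocyte-like cells had a median of 14.2, classical monocyte-like cells 6.131 and neutrophil-like cells 2.352, also above 1 in 6 of 6 mice, so the quotient does not set B cell- or DC-like cells apart from RNA of those cells.

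**Figure D4:**
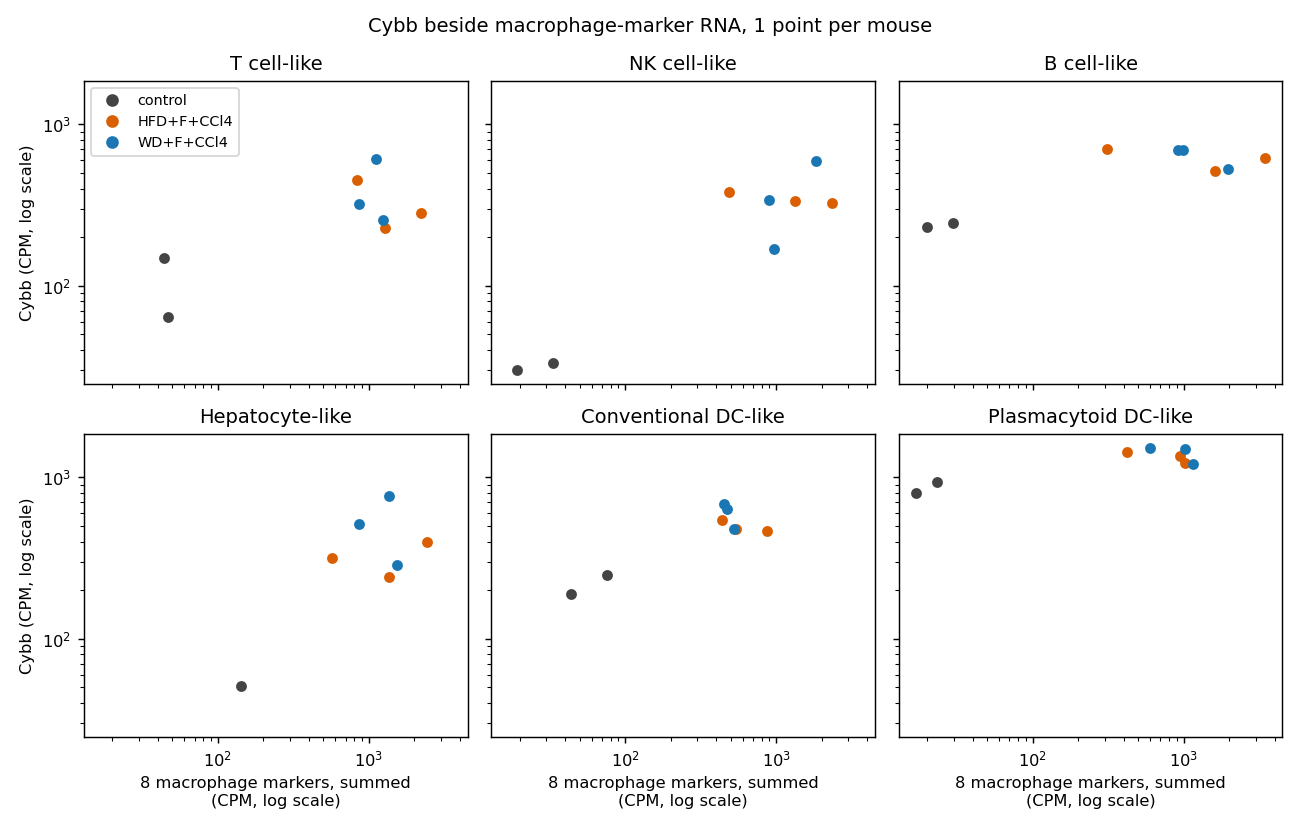
Cybb (CPM, vertical log axis) against the summed level of 8 macrophage markers (CPM, horizontal log axis) in 6 cell types, 1 point per mouse, coloured by group. In each type the NASH mice lie to the right of and above the control mice, in NK cell-like cells at 489 to 2331 CPM of markers against 19.1 and 33.4 CPM, and in plasmacytoid DC-like cells Cybb is highest at comparable marker sums (1202 to 1523 CPM).

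The cells of a named type also came from different clusters in the 2 control and the 6 NASH mice. Of 3655 cells of a T cell-like cluster, 2871 and 693 were from the control mice, while a cluster of 4778 cells held 132 and 62 control cells. Of 2392 cells of a B cell-like cluster 2199 and 140 were control cells, and a second of 2987 cells held 94 and 57. Within the second cluster of each type, which both conditions share, no member was called by edgeR. Cybb there was at 1.12 (adjusted p = 0.2707) and 1.63 (adjusted p = 0.07115, edgeR) in T cell-like and at 0.30 and 0.52 in B cell-like cells, where 0.398% and 1.24%, and 0.357% and 0.981%, of genes were called. When the cells with the highest doublet scores were left out, Cybb was no longer called in NK cell-like cells (1.74 and 1.75, adjusted p = 0.2071 and 0.1444, edgeR), in T cell-like cells of WD+F+CCl4 (0.76, adjusted p = 0.4259) or in plasmacytoid DC-like cells of WD+F+CCl4 (0.50, adjusted p = 0.1373). It was still called in conventional DC-like cells (1.03, adjusted p = 0.02675, and 1.28, adjusted p = 0.006069) and B cell-like cells (0.92, adjusted p = 0.04106, and 0.85, adjusted p = 0.03667, edgeR).

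Cybb did not pass the test in classical monocyte- and macrophage-like cells. In classical monocyte-like cells it was at 2079 and 2069 CPM in the control mice, 1913, 2094 and 2337 CPM in the HFD+F+CCl4 mice and 1872, 2101 and 2151 CPM in the WD+F+CCl4 mice, with log2 fold changes of 0.25 and 0.21. Macrophage-like cells had 1795 and 1427 CPM in the control mice and between 1040 and 1643 CPM in the NASH mice (-0.13 and -0.37, with 1.95% and 3.2% of genes called). In both types the groups overlapped. Patrolling monocyte-like and neutrophil-like cells had too few cells in control replicate 2 for the test. With a minimum of 10 cells per mouse, Cybb in patrolling monocyte-like cells was at 0.75 ± 0.47 (adjusted p = 0.6008, edgeR) and 1.02 ± 0.47 (adjusted p = 0.4527, edgeR). In neutrophil-like cells Cybb was at 472 CPM in control replicate 1, at 730, 857 and 1405 CPM in the HFD+F+CCl4 mice and at 1159, 1313 and 706 CPM in the WD+F+CCl4 mice.

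Ncf4, which anchors the cytosolic subunits at the phagosome, lay above control without overlap in monocyte- and neutrophil-like cells, and overlapped with control in macrophage-like cells. In patrolling monocyte- and neutrophil-like cells control was 1 mouse. The share of all genes without overlap is not given, in the pool or in any type. In classical monocyte-like cells the median log2 fold change over all genes was 0.36 and 0.37. Classical monocyte-like cells had 125 and 132 CPM in the control mice, 316, 284 and 346 CPM in the HFD+F+CCl4 mice and 277, 265 and 298 CPM in the WD+F+CCl4 mice, without overlap. The log2 fold changes of 1.45 ± 0.29 (adjusted p = 0.08172, edgeR) and 1.28 ± 0.29 (adjusted p = 0.09145, edgeR) did not pass the test, which rested on 30 and 23 control cells and called 0.214% and 0.411% of genes. DESeq2 called both (1.33, adjusted p = 0.01041, and 1.17, adjusted p = 0.04648). It made more false calls than edgeR in simulated counts of the pool, and no such counts were made for this type. Both were also called by edgeR once the unnamed control cells with monocyte markers and hepatocyte RNA were counted as classical monocyte-like (1.49 ± 0.18, adjusted p = 0.000519, and 1.32 ± 0.17, adjusted p = 0.000551, edgeR), an alternative added after seeing the data. Most control cells of that fit were the added ones, 707 and 137 beside 30 and 23. The share of all genes called in it is not given here, so it does not set Ncf4 apart from other genes. Control classical monocyte-like cells carried 737 and 1145 CPM of hepatocyte markers, against 44.4 to 509 CPM in the NASH mice, and the part of this in the result was not tested.

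Patrolling monocyte-like cells had 122 CPM of Ncf4 in control replicate 1 and between 278 and 348 CPM in the NASH mice. Neutrophil-like cells had 179 CPM in control replicate 1, 369, 345 and 423 CPM in the HFD+F+CCl4 mice and 330, 300 and 358 CPM in the WD+F+CCl4 mice. With a minimum of 10 cells per mouse, which admits control replicate 2, neither was called (patrolling 1.74 and 1.74, adjusted p = 0.1584 and 0.1732, and neutrophil 1.36 and 1.22, adjusted p = 0.1079 and 0.1118, edgeR), with 0.191% and 0.339% and with 1.99% and 3.37% of genes called. Mature DC-like cells could be fitted at that minimum too, and 0 of 7 members were called by edgeR in either model, where 1.4% and 0.998% of genes were called. An unadjusted p under 0.05 was seen for 2 members in each, and for 462 and 448 of all 3205 genes. Macrophage-like cells had 152 and 128 CPM in the control mice and between 115 and 211 CPM in the NASH mice, and conventional DC-like cells 104 and 109 CPM against 64.2 to 136 CPM. In these the groups overlapped. Ncf4 was called in NK cell-like cells, at 50.02 and 66.7 CPM in the control mice and between 89.6 and 123 CPM in the NASH mice (1.06 ± 0.30, adjusted p = 0.04489, and 1.16 ± 0.30, adjusted p = 0.02304, edgeR). Without control replicate 1 both calls were lost (1.19 and 1.29, adjusted p = 0.5875 and 0.5554, edgeR), and leaving out WD+F+CCl4 replicate 2 ended the call of WD+F+CCl4. The call of HFD+F+CCl4 also ended when control replicate 2, HFD+F+CCl4 replicate 2 or 3, or the first WD+F+CCl4 mouse was left out. Ncf1 was called there in WD+F+CCl4 (1.62 ± 0.46, adjusted p = 0.03731, edgeR), with 28.7 and 100 CPM in the control and between 51.8 and 136 CPM in the NASH mice, which overlapped. It was at 0.52 without control replicate 1 (adjusted p = 0.8402), 1.67 without WD+F+CCl4 replicate 1 (adjusted p = 0.07947) and 1.21 without WD+F+CCl4 replicate 2 (adjusted p = 0.1547, edgeR), and not called in any of these.

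**Figure D5:**
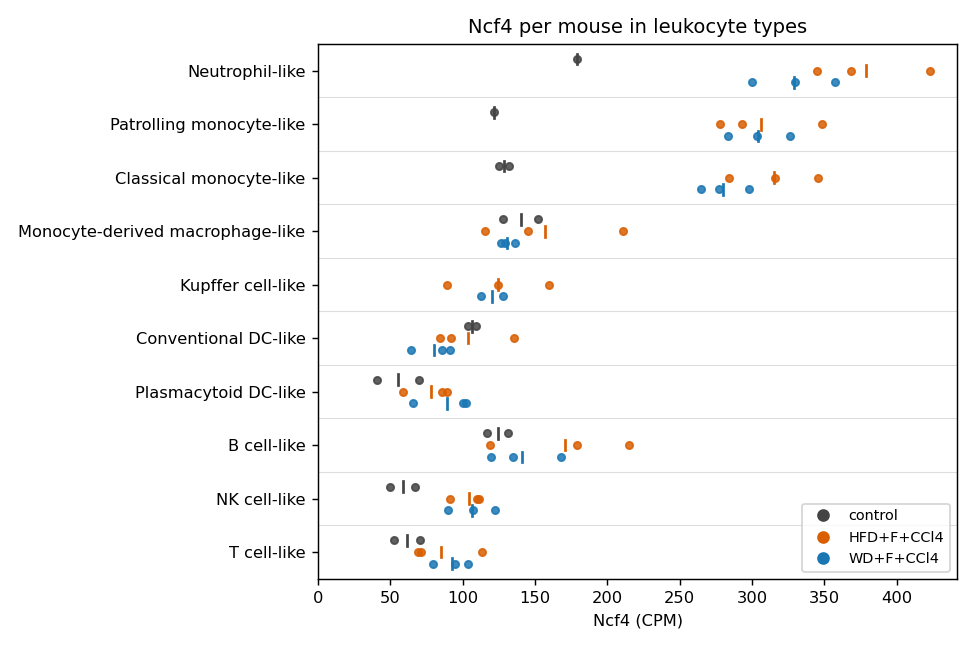
Ncf4 level (CPM) per mouse in 10 leukocyte types, points coloured by group, with short lines for group means. In classical monocyte-like cells the 6 NASH mice lie between 265 and 346 CPM, above the control mice at 125 and 132 CPM, and in macrophage-like cells the groups overlap.

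Rac2 was not called in any tested lymphoid type. Its CPM did not overlap between the groups in 3 of them, and how many of all genes were without overlap was not counted. T cell-like cells had 1299 and 1148 CPM in the control mice and between 812 and 1062 CPM in the NASH mice, NK cell-like cells 1137 and 1435 CPM against 675 to 912 CPM and B cell-like cells 750 and 942 CPM against 590 to 656 CPM. The adjusted p of these tests lay between 0.2472 and 0.4604 (edgeR). Plasmacytoid DC-like cells had 1129 and 1192 CPM and overlapped the NASH mice (902 to 1265 CPM). Cycling T cell-like cells overlapped as well, with 1225 and 1280 CPM against 1002 to 1296 CPM. The only Rac2 call was in endothelial cell-like cells in HFD+F+CCl4 (-1.98 ± 0.39, adjusted p = 0.03753, edgeR, where 1.37% of genes were called), with -1.48 in WD+F+CCl4 (adjusted p = 0.1806, edgeR, 1.14% called). Levels there were 387 and 510 CPM in the control mice, 95.9, 135 and 97.8 CPM in the HFD+F+CCl4 mice and 254 and 88.5 CPM in the WD+F+CCl4 mice with enough cells. The call was lost without either control mouse or any 1 of the HFD+F+CCl4 mice (-2.16 to -1.87, adjusted p from 0.09377 to 0.3166, edgeR). T cell markers in these cells summed to 815 and 694 CPM in the control mice and to between 12.4 and 212 CPM in the NASH mice, and B cell markers to 314 and 725 CPM against 12.4 to 49.8 CPM. Their part in the result was not tested.

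Neither Rac1 nor Cdc42 passed the test within the phagocyte types. Rac1 was at 420 and 528 CPM in control classical monocyte-like cells and between 480 and 597 CPM in those of the NASH mice, and at 396 and 402 CPM against 403 to 478 CPM in macrophage-like cells. Cdc42 was at 1121 and 1057 CPM in control classical monocyte-like cells, above all NASH mice (863 to 958 CPM), and at 1018 and 1061 CPM against 805 to 910 CPM in macrophage-like cells. With the TMM scaling of edgeR, the log2 fold changes of Cdc42 in these cells were between -0.10 and -0.04 (adjusted p between 0.8224 and 0.957, edgeR). Under this scaling the median over all genes was 0.36 and 0.37 in classical monocyte-like and 0.31 and 0.32 in macrophage-like cells. Ncf1 in conventional DC-like cells was at 152 and 131 CPM in the control mice and between 182 and 218 CPM in the NASH mice, without overlap and without a call (0.52 ± 0.17 and 0.46 ± 0.17, adjusted p = 0.1147 and 0.1164, edgeR). Cyba in the same cells was at 888 and 606 CPM against 995 to 1326 CPM (0.61 ± 0.24 and 0.66 ± 0.24, adjusted p = 0.1849 and 0.1128, edgeR).

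Whether a change in a type differed from that in the pooled phagocytes was tested for T cell-, B cell-, NK cell-, neutrophil- and endothelial cell-like cells with the exact permutation test on log2(CPM + 10), 35 tests in all. The smallest p the design allows is 0.0357, or 0.0476 for endothelial cell-like and 0.1429 for neutrophil-like cells, so that no outcome could have passed 0.05 after Benjamini-Hochberg adjustment over these tests, and the values are a description. The log2 difference of Cybb in NK cell-like cells was 1.96 more than in the pool (p = 0.0357, adjusted p = 0.125, exact permutation test). The same p and adjusted p were reached in the other direction, from -0.85 to -0.26. This held for Rac1 and Cdc42 in T cell-, NK cell- and B cell-like cells, Ncf4 in T cell- and B cell-like cells and Cyba in T cell-like cells.

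No member was called between the 2 NASH models. In the pooled phagocytes, 0 of 7 members and 0 of 17127 genes were called by edgeR in WD+F+CCl4 against HFD+F+CCl4, with 1124 genes at an unadjusted p under 0.05 and 127 called by DESeq2, none of them a member. The member nearest to the threshold was Rac2, 0.34 ± 0.15 higher in WD+F+CCl4 (unadjusted p = 0.04943, adjusted p = 0.7592, edgeR). Within types 0 of 77 tests were called, 5 had an unadjusted p under 0.05, and 0.017% of 117844 tests over all genes were called (for example 0.00856% in classical monocyte-like and 0.0119% in cycling T cell-like cells), and DESeq2 also called 0 of 77.

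Regulators of these proteins were taken as lists and tested in the pooled phagocytes, thus over the same cell makeup as above, where the median log2 fold change of all genes was 0.08 and 0.07 and 11.9% of genes were called higher and 9.34% lower in HFD+F+CCl4, and 14.3% and 11.9% in WD+F+CCl4. Among genes that act beside the oxidase, Rap1b, a Ras family GTPase, rose by 1.36 ± 0.19 (adjusted p = 0.001858, edgeR) in HFD+F+CCl4 and by 1.5 ± 0.19 (adjusted p = 0.001099, edgeR) in WD+F+CCl4. Rac3, the third Rac gene, rose in WD+F+CCl4 (1.80 ± 0.58, adjusted p = 0.04966, edgeR).

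Of 15 exchange factors, which load GTP onto Rac and Cdc42, 5 rose and 1 fell in HFD+F+CCl4 and 6 rose and 2 fell in WD+F+CCl4 (medians 0.11 and 0.25), where 21.3% and 26.2% of all 17127 genes were called. Fgd4, which acts on Cdc42, rose by 3.00 ± 0.23 and 3.18 ± 0.23 and Dock1 by 1.79 ± 0.20 and 1.86 ± 0.20, while Arhgef6 fell by 0.83 ± 0.15 and 0.73 ± 0.15 on the log2 scale (edgeR). Of 9 GTPase-activating proteins, which switch them off, 4 rose and 1 fell in each model (medians -0.04 and -0.02), beside the same 21.3% and 26.2% of all genes. Arhgap25 rose by 1.04 ± 0.20 and 0.99 ± 0.20, and Bcr fell by 2.37 ± 0.22 and 1.79 ± 0.22. Of 2 tested GDP dissociation inhibitors, Arhgdia rose in both models (0.56 ± 0.15 and 0.59 ± 0.15) and Arhgdib in WD+F+CCl4 (0.69 ± 0.20), and their medians were 0.50 and 0.64.

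Of 16 tested effectors and regulators of the actin-nucleating WAVE and WASP complexes, 4 rose and 1 fell in HFD+F+CCl4 and 6 rose and 2 fell in WD+F+CCl4 (medians 0.21 and 0.28), against 21.3% and 26.2% of all genes called in either direction. Abi3, a WAVE complex member, rose by 2.45 ± 0.23 (adjusted p = 0.000412, edgeR) and 2.67 ± 0.24, and Nckap1 fell by 2.48 ± 0.72 and 3.16 ± 0.73. Of 8 genes that remove superoxide and peroxide, 3 rose in HFD+F+CCl4, and 4 rose and 1 fell in WD+F+CCl4 (medians 0.77 and 0.91), where 11.9% and 14.3% of all genes rose. The peroxiredoxin gene Prdx1 rose by 1.72 ± 0.22 and 1.54 ± 0.22 and mitochondrial Sod2 by 1.70 ± 0.41 and 1.44 ± 0.40, and extracellular Sod3 fell by 3.13 ± 0.96 in WD+F+CCl4 (adjusted p = 0.04155, edgeR).

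Without DC-like clusters, where 1.09% and 1.4% of 15825 genes were called, 1 of 15 tested exchange factors and 1 of 16 tested effectors were called, and none of the 9 GTPase-activating proteins, 2 inhibitors or 8 superoxide and peroxide genes. The exchange factor gene Tiam1 fell in both models, by 2.15 ± 0.34 (adjusted p = 0.02684, edgeR) and 1.84 ± 0.34 (adjusted p = 0.04202, edgeR), and Abi3 rose in WD+F+CCl4 (1.58 ± 0.28, adjusted p = 0.03816, edgeR, against 1.40, adjusted p = 0.05522, in HFD+F+CCl4). Both were also called within macrophage-like cells, Tiam1 at -2.91 (adjusted p = 0.003856, edgeR) and -2.90 and Abi3 at 1.59 and 1.81. Of the 99 control macrophage-like cells, 59 and 34 lay in 1 cluster of 7532 cells, while clusters of 3080, 913 and 2792 cells held 3, 3 and 0. Within the cluster that both conditions share, Tiam1 was at -3.02 (adjusted p = 0.001298, edgeR) and -2.82 (adjusted p = 0.001931, edgeR) and Abi3 at 1.75 (adjusted p = 0.01225, edgeR) and 2.14 (adjusted p = 0.00347, edgeR), where 3.46% and 4.62% of genes and none of the 7 members were called. Abi3 was called in both models in classical monocyte-, conventional DC-, NK cell- and B cell-like cells too (2.24 and 2.35, 2.53 and 2.85, 1.32 and 1.44, and 0.92 and 1.39). The macrophage markers rose in these types too, from 398 and 132 CPM to between 830 and 1964 CPM in classical monocyte-like cells and as given above in the others, and their part in the result was not tested. Tiam1 was called higher in T cell-like cells (1.54 and 1.30), and was not called within the T cell-like cluster that both conditions share (adjusted p = 0.4714 and 0.3563, edgeR). Tiam1 and Abi3 were singled out here after their values were seen.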

How the data were processed

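Liver cells of 8 mice (2 control, 3 with HFD+F+CCl4, 3 with WD+F+CCl4) were captured with the 10x Genomics 3' version 3 chemistry. The authors deposited UMI counts per gene and cell for the whole series, made with bcl2fastq 2.20 and Cell Ranger on GRCm38 per the labels and the file headers, without normalization. The header names Cell Ranger 4.0.0, and the study's methods name a later version. Cell Ranger counts reads of the sense strand and drops reads that fit several genes by default. No annotation of cells was used here, so cell types were rebuilt and may differ from those of the study.

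The filter of the study's methods was applied, which keeps a barcode above 500 genes whose mitochondrial share of UMIs is below 25%. Counts were scaled to 10000 per cell, and 2000 variable genes without the members and list genes gave 30 components, a graph of 20 neighbours and 33 Leiden clusters at resolution 1.0 (scanpy 1.11.5). A cluster was named where at least 3 markers occurred in a share of 0.1 of its cells and their mean z-score was at least 0.5. Clusters led by hepatocyte or erythroid RNA stayed unnamed. Scrublet's own limit called 13.8% of cells in 1 library and 3.24% in another, and at most 0.0268% in 6 of the 8, so it was not used and doublets stayed in, and 7452 cells by rank (0.8% per 1000 barcodes) were left out as an alternative. Median UMIs per kept cell were 992.5 in control replicate 2, 2397 in control replicate 1 and between 3159 and 4278 in the NASH mice.

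Counts were summed per mouse and type with at least 20 cells and tested across mice with edgeR 4.0.16 (quasi-likelihood, TMM, filterByExpr with a minimum count of 10, all 3 groups in 1 fit, Benjamini-Hochberg over all genes, threshold 0.05), with DESeq2 1.42.0 as the alternative. A type was compared with control where both control mice and at least 2 mice of each model passed. Nothing says that mice of a group were housed or handled apart, so p-values measure the spread between these mice. Exact permutation tests were two-sided on the absolute difference of log2(CPM + 10). The values named are all members, the 3 most similar genes per member (over 50 CPM in a type), and for each list the 2 called genes per direction with the largest change. Some list genes are not reported here. The members and lists were chosen with earlier results of these data known, and the cluster resolution, the naming rule and the alternatives said to be added were set after seeing the data. In simulated counts of the pooled phagocytes, 200 genes had a true log2 fold change of 2. There edgeR recovered 90% in HFD+F+CCl4 against control with 5 false calls among 16782 genes, and DESeq2 recovered 95.5% with 31 false calls. Smaller changes and single types were not simulated.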

Additional observations from a re-analysis of the deposited data

How the results depend on the processing

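In the pooled phagocytes, the 5 calls of HFD+F+CCl4 and the 5 of WD+F+CCl4 each became 3 at another Leiden resolution and 0 without DC-like clusters, and those of WD+F+CCl4 became 3 with doublets left out. Within types, the 7 calls of HFD+F+CCl4 became 14 with a filter of at least 1 count in all, 3 with more than 1000 genes per cell, 4 with doublets left out and 11 with the control cells that carry monocyte markers and hepatocyte RNA. The 10 of WD+F+CCl4 became 19 with at least 1 count and 4 with doublets left out, and the 0 between the models became 4 with at least 1 count. Fewer types were tested with more than 1000 genes per cell (6 types, 42 tests), and otherwise the cause was not tested. For most settings in this section, and for all fits without 1 mouse, the share of all genes called is not given. These counts therefore do not tell a move of the members from a move of all genes. Ncf1 in neutrophil-like cells was at 642 CPM, at 498 CPM with more than 1000 genes per cell and at 787 CPM with doublets left out. Without DC-like clusters the pooled log2 fold change of Cdc42 turned to -0.15 (HFD+F+CCl4) and -0.091 (WD+F+CCl4) and that of Rac2 to 0.20 (WD+F+CCl4), and with equal weight of types Cdc42 was at -0.14. The replicate numbers of the titles do not pair the mice, as same-numbered mice had correlations of their deviations from -0.51 to 0.05. With the number as a replicate block, 4 and 3 members were called in the pool and 5 and 4 within types, and 0 and 1 between the models. When 1 mouse was left out, the pooled calls ranged from 1 to 5 in HFD+F+CCl4 (1 without control replicate 1, 3 without control replicate 2) and from 3 to 7 in WD+F+CCl4 (3 without either control, WD+F+CCl4 replicate 1 or replicate 3). Within types they ranged from 2 to 10 (2 without control replicate 1, 3 without control replicate 2, 4 without HFD+F+CCl4 replicate 3) and from 3 to 13 (3 without control replicate 1), and between the models from 0 to 0 in the pool and 0 to 4 within types (4 without WD+F+CCl4 replicate 3). Over the other settings, values of single members kept direction and side of the threshold in 290 cases, were no longer past it in 63, newly past it in 7 and reversed in 4, as given above. Control replicate 2, with 6135827 UMIs, limits every comparison with control.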
